A study of Mus musculus with 36 samples.

Results

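The transcripts described are those of 9 genes of the JAK-STAT pathway and its feedback loop, Ifnar1, Jak2, Stat2, Stat3, Stat5a, Stat6, Socs1, Socs3 and Cish. They were taken as the rows of the deposited tables whose gene symbol equals one of these names, which gave 9 of the 19879 genes listed, with 1 row for each name. RNA was sequenced from wild-type BV-2 cells, an immortalised murine microglial line, in 12 groups of 3 libraries. Cells received the vehicle DMSO, the vehicle ethanol (EtOH), lipopolysaccharide (LPS, 600 ng/mL, a bacterial stimulus of microglia), or LPS together with 1 of 3 agents. These were the fumaric acid esters dimethyl fumarate (DMF) and monomethyl fumarate (MMF), each at 30 µM, and the cannabinoid cannabidiol (CBD) at 6 µM. Each treatment was sampled after 4 h and after 24 h. In all groups serum was lowered to 0.1% and the vehicle was at 0.2%. The vehicle groups had no LPS, DMSO dissolved both fumarates and EtOH dissolved CBD. The labels do not say which vehicle the group with LPS alone received, so a drug and its vehicle cannot be told apart in a comparison with LPS alone.

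Libraries held 14110424 to 26676607 counted reads. Of 14 microglia and macrophage markers, 13 were listed (Sall1 was not), and their summed level was 1650 to 3050 RPM (a library's reads of a gene scaled to a fixed total of counted reads). The homeostatic microglial markers P2ry12, Tmem119 and Cx3cr1 were low, at 0.957 to 6.13, 1.12 to 13.0 and 0.571 to 21.4 RPM. Marker lists of astrocytes, neurons, T cells and fibroblasts summed to at most 1.68 RPM in any library. The oligodendrocyte list summed to 44.3 to 94.2, of which Mbp alone gave 40.1 to 89.9, while Mog, Olig2 and Cldn11 stayed under 1 RPM. All libraries come from 1 line, which lacks the surroundings of microglia in tissue, and in bulk RNA fewer expressing cells and less RNA per cell cannot be told apart. Nothing in the labels ties the 3 libraries of a group to separate cultures, and the methods say that the experiment was repeated 3 times, so p-values measure the spread between these libraries.

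As background, cytokines and interferons bind receptors whose cytoplasmic tails carry Janus kinases. The kinases phosphorylate STAT proteins, which form dimers, enter the nucleus and activate genes. Among those genes are the SOCS family and Cish, whose products bind the kinases or the receptors and damp the signal, so that their transcripts are widely read as a trace of recent STAT activity. LPS does not act through a JAK-coupled receptor, but it makes microglia release interferon beta and interleukin cytokines that do. STAT dimers bind a palindrome known as GAS, and the complex of STAT proteins with Irf9 binds the interferon-stimulated response element (ISRE).

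The promoters of the feedback genes are shown because GAS matches can be read in those of Socs3 and Cish and ISRE core matches in that of Socs1. Sequences are RefSeq promoters (250 bases before to 50 bases after the transcription start, table build GRCm38.p6), and every one of the 9 genes had an entry (10 promoters, 2 of them for Stat5a). Each was placed in GRCm39 by exact match of its letters, which gave 1 position for each. Capitals mark matches to TTCNNNGAA (GAS) or GAAANNGAA (ISRE core) on either strand.
Socs3 (chr11:117860143-117860442, minus strand, 1 GAS match): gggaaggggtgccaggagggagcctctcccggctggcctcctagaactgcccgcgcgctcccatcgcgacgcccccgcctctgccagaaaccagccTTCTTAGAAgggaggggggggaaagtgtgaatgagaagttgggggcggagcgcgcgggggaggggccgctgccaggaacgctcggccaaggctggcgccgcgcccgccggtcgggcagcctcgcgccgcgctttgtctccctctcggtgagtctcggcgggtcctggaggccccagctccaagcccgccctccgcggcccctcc
Cish (chr9:107173608-107173907, plus strand, 2 GAS matches): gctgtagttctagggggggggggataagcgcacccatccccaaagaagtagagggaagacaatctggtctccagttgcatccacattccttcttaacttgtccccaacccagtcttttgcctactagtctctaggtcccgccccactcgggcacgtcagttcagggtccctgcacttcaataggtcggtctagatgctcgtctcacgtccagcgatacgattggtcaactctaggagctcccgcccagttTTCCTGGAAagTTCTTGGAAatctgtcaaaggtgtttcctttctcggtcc
Socs1 (chr16:10603351-10603650, minus strand, 2 ISRE core matches that share 3 bases): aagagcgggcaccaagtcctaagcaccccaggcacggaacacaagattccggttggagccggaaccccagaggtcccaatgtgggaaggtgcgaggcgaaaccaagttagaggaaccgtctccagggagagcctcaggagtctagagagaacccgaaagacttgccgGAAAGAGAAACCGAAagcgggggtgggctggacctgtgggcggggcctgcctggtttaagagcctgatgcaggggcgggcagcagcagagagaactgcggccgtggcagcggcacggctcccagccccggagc
The GAS match of Socs3 began 154 bases before the RefSeq start used, and those of Cish at that start itself and 11 bases after it. Both windows lie wholly within the gene spans listed with the counts (chr11:117856905-117860873 for Socs3 and chr9:107173225-107179983 for Cish). They are thus downstream of the outermost start of these genes, and which start the cells use was not tested. In Socs1 the pair of ISRE core matches lay 83 and 77 bases before the start. Of the other 6 genes, Ifnar1 held 1 GAS match, 5 bases before its start, and Stat2 held 1 ISRE core match, 221 bases before its start. Jak2, Stat3, Stat5a and Stat6 held neither. Among all 32851 promoters of that length, 8.30% held a GAS match and 8.56% an ISRE core match. A match describes letters only and is not evidence of binding.

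Compared per length, as RPKM (RPM divided by kilobases of merged GENCODE exons), the 9 genes fell into higher and lower values. The means over the 12 groups were 27.1 for Stat6, 27.0 for Jak2, 22.4 for Socs3, 17.9 for Stat3, 12.3 for Stat2 and 9.50 for Ifnar1. Stat5a (2.22), Cish (1.85) and Socs1 (0.903) were low on this scale. The merged exons came to 6419 bases for Cish and 3383 for Socs1, which is most of the gene span in both. A transcript shorter than its merged exons would have a higher value per length. The split into higher and lower values may thus depend on the lengths used, and other lengths were not tested. All other levels below are normalized counts, that is reads divided by a size factor shared by the 36 libraries, and are compared only within a gene. On that scale the highest group mean exceeded the lowest by 15.4-fold for Cish, 6.71-fold for Socs1, 5.70-fold for Socs3 and 5.16-fold for Stat2. The spans were smaller for Jak2 (2.88-fold), Stat3 (2.34-fold), Stat5a (2.01-fold), Ifnar1 (1.95-fold) and Stat6 (1.44-fold). When the 12 groups were put in order of their mean, few neighbours had libraries that did not overlap. Of 11 neighbouring pairs these were 3 for Socs3, 3 for Cish, 1 each for Stat2, Stat5a, Socs1 and Ifnar1, and 0 for Stat3, Stat6 and Jak2.

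The genes lie at chr16:91282126-91304329 (Ifnar1), chr19:29229228-29290480 (Jak2), chr10:128106428-128128718 (Stat2), chr10:127478855-127496826 (Stat6), chr16:10600104-10603400 (Socs1), chr11:117856905-117860873 (Socs3) and chr9:107173225-107179983 (Cish) of GRCm39. Stat5a (chr11:100750177-100775995, plus strand) and Stat3 (chr11:100775924-100830366, minus strand) share 142 exon bases on opposite strands, 1.72% of the Stat5a exons. Whether counting used strand is not given in the sources used here, so reads from the overlap cannot be assigned. Exons of Stat6 share 77 bases with Nab2, and all of the 9 genes but Stat2, Stat6 and Ifnar1 overlap non-coding genes on the other strand that are not rows of these tables, by at most 16.8% of the exons (Cish) for a single such gene. Stat5a also has the closely similar neighbour Stat5b. How reads that align to both were counted is not given in the sources used here, so some may be missing from its counts.

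The question for LPS was which of these genes it moved and whether both vehicles gave the same answer. LPS raised the 3 feedback inhibitors and Stat2 at both times and against both vehicles. The threshold was an adjusted p of 0.05 (limma, two-sided, Benjamini-Hochberg over every gene tested), passing it is named a call, and log2 fold changes are on the scale of log2(normalized count + 1), with their standard error (SE). At 4 h, 5 of the 9 genes were called against DMSO (4 higher, 1 lower) beside 14.1% of 11424 genes tested. Against EtOH 4 were called, all higher, beside 10.2% of 11491. At 24 h, 8 were called against DMSO (7 higher, 1 lower) beside 22.7% of 11574, and 7 against EtOH (6 higher, 1 lower) beside 20.5% of 11775. Both vehicles were set against the same LPS libraries, so the pairs are not independent. The 9 genes were chosen with earlier results of these data known, so the shares of all genes here and below do not test them as a set. Among all genes tested, libraries of LPS and vehicle did not overlap for 35.7% (DMSO) and 31.4% (EtOH) at 4 h. At 24 h these shares were 39.9% and 37.6%.

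Socs3, whose product binds Jak kinases and the gp130 receptor and limits Stat3 signalling, had counts of 452, 403 and 397 in DMSO at 4 h and of 530, 469 and 497 in EtOH. In LPS at 4 h the counts were 1400, 1885 and 1441. Every LPS library lay above every vehicle library, and the log2 fold change was 1.90 (SE 0.120, adjusted p = 4.09e-05) over DMSO and 1.65 (SE 0.118, adjusted p = 0.000156) over EtOH. At 24 h the counts were 532, 708 and 789 in DMSO, 706, 653 and 634 in EtOH and 2195, 2576 and 2373 in LPS. The groups again did not overlap, and Socs3 rose by 1.84 (SE 0.130, adjusted p = 5.12e-06) and 1.85 (SE 0.0852, adjusted p = 1.54e-07).

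Cish encodes a SOCS-family protein induced mainly by Stat5 signalling. Its counts at 4 h were 41.1, 44.1 and 65.0 in DMSO, 27.3, 34.5 and 29.8 in EtOH and 156, 208 and 155 in LPS. The LPS libraries stood above both vehicles, by 1.78 (SE 0.215, adjusted p = 0.00133) over DMSO and 2.46 (SE 0.182, adjusted p = 0.000178) over EtOH. At 24 h the counts were 125, 126 and 147 in DMSO, 178, 160 and 243 in EtOH and 451, 494 and 444 in LPS. Here the order of the vehicles was turned, and the rise was 1.81 (SE 0.114, adjusted p = 2.57e-06) over DMSO and 1.28 (SE 0.148, adjusted p = 0.000110) over EtOH.

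Socs1, an inhibitor of Jak1, Jak2 and Tyk2 that restrains interferon signalling, was nearly silent without LPS. Its counts at 4 h were 8.03, 17.2 and 26.0 in DMSO, 8.08, 12.8 and 24.0 in EtOH and 68.5, 98.1 and 103 in LPS. Socs1 rose by 2.43 (SE 0.387, adjusted p = 0.00465) over DMSO and 2.61 (SE 0.369, adjusted p = 0.00387) over EtOH. At 24 h the counts were 12.6, 24.0 and 12.04 in DMSO, 27.2, 25.4 and 14.3 in EtOH and 61.8, 66.3 and 45.1 in LPS. The rise was then 1.83 (SE 0.304, adjusted p = 0.00147) and 1.38 (SE 0.287, adjusted p = 0.00556), and no LPS library overlapped a vehicle library at either time. The counts are small, with 8 reads in the lowest library, which limits the precision of these values.

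**Figure D1:**
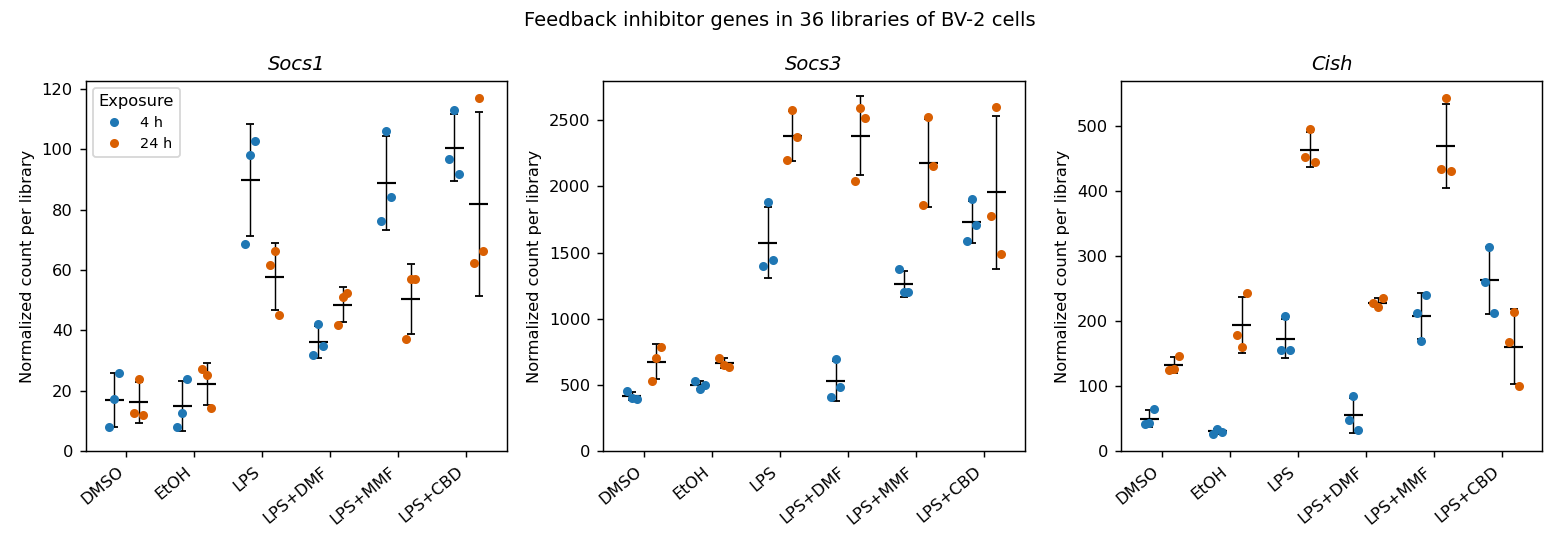
Normalized count (y axis, from 0) of Socs1, Socs3 and Cish in each of the 36 libraries, by treatment (x axis) at 4 h (blue) and 24 h (orange). Points are libraries, horizontal bars means and whiskers 1 SD (n = 3). In LPS the 3 genes stood above both vehicles, and in LPS with DMF at 4 h the group means were 36.2 (Socs1), 532 (Socs3) and 55.2 (Cish).

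Stat2, the partner of Irf9 in the interferon-activated complex, had counts of 432, 898 and 573 in DMSO at 4 h, 326, 848 and 455 in EtOH and 1359, 2212 and 1532 in LPS. It rose by 1.45 (SE 0.264, adjusted p = 0.00862) over DMSO and 1.73 (SE 0.324, adjusted p = 0.0130) over EtOH. Without EtOH replicate 6 the second value was 1.66 with adjusted p = 0.0635. At 24 h Stat2 counts were 672, 913 and 770 in DMSO, 723, 840 and 914 in EtOH and 1158, 1629 and 1210 in LPS. The rise was 0.77 (SE 0.142, adjusted p = 0.00268) and 0.69 (SE 0.133, adjusted p = 0.00352). When all 36 libraries shared 1 estimate of the spread, the adjusted p at 24 h was 0.0835 against DMSO and 0.127 against EtOH.

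Ifnar1, a chain of the type I interferon receptor, and Jak2, the kinase of many cytokine and growth factor receptors, were called at 24 h and not at 4 h. Ifnar1 counts at 24 h were 1114, 1351 and 1245 in DMSO, 1149, 1222 and 1296 in EtOH and 1431, 2114 and 1670 in LPS. Ifnar1 rose by 0.49 (SE 0.130, adjusted p = 0.0194) over DMSO and 0.50 (SE 0.124, adjusted p = 0.0146) over EtOH. Leaving out LPS replicate 3 gave adjusted p values of 0.0590 and 0.0514, and leaving out DMSO replicate 4 or 6 gave 0.0628 and 0.0638. Jak2 counts at 24 h were 2567, 3079 and 2982 in DMSO, 2634, 3260 and 3066 in EtOH and 4404, 5735 and 4309 in LPS. Jak2 rose by 0.75 (SE 0.114, adjusted p = 0.000834) and 0.69 (SE 0.118, adjusted p = 0.00164), or with all libraries in 1 fit adjusted p = 0.0655 and 0.0909. At 4 h its counts of 2010, 4267 and 2308 in LPS overlapped those of 1240, 2409 and 1453 in DMSO, with 0.72 (SE 0.308, adjusted p = 0.153). The change of the LPS effect with time was not called for either gene (adjusted p = 0.994 for Jak2 and 0.432 for Ifnar1 with DMSO as the control), so an effect at 24 h only was not shown.

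The other STAT genes moved little. Stat3, the factor downstream of interleukin-6 and interleukin-10 receptors, had counts of 2458, 3126 and 2349 in LPS at 4 h, above those of 2001, 2305 and 2025 in DMSO, with 0.31 (SE 0.116, adjusted p = 0.111). At 24 h it was called against DMSO at 0.30 (SE 0.0945, adjusted p = 0.0432) and not against EtOH at 0.26 (SE 0.0953, adjusted p = 0.0745). The DMSO call was lost on leaving out LPS replicate 2 or 3 or any DMSO library (adjusted p = 0.0786 to 0.133), and without LPS replicate 1 the EtOH value was 0.34 with adjusted p = 0.0258. Stat5a, a factor of the colony-stimulating factor receptors, was the only member lower in LPS at 4 h that passed the test. Its counts were 360, 362 and 357 in DMSO, 354, 250 and 361 in EtOH and 234, 238 and 263 in LPS. Stat5a fell by 0.56 on the log2 scale (SE 0.0954, adjusted p = 0.00653) against DMSO. Against EtOH the value was -0.37 (SE 0.148, adjusted p = 0.162), and without EtOH replicate 5, the low library, it was -0.54 with adjusted p = 0.0235. At 24 h the LPS counts of 386, 348 and 372 overlapped both vehicles. For Stat6, the factor of interleukin-4 and interleukin-13, counts overlapped at 4 h, and at 24 h those of 2447, 3163 and 2875 in LPS lay below 3433, 3922 and 3840 in DMSO and below 3238, 3769 and 3594 in EtOH. It fell by 0.39 (SE 0.0979, adjusted p = 0.0147) and by 0.32 (SE 0.101, adjusted p = 0.0457, or 0.0548 by edgeR). The first call was lost without LPS replicate 3 or DMSO replicate 5 or 6 (adjusted p = 0.0518 to 0.0689), and the second without LPS replicate 1 or 3 or EtOH replicate 5 or 6 (adjusted p = 0.122 to 0.177). The change of the LPS effect on Stat6 with time was not called, at -0.38 with either control (adjusted p = 0.108 with DMSO and 0.114 with EtOH).

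**Figure D2:**
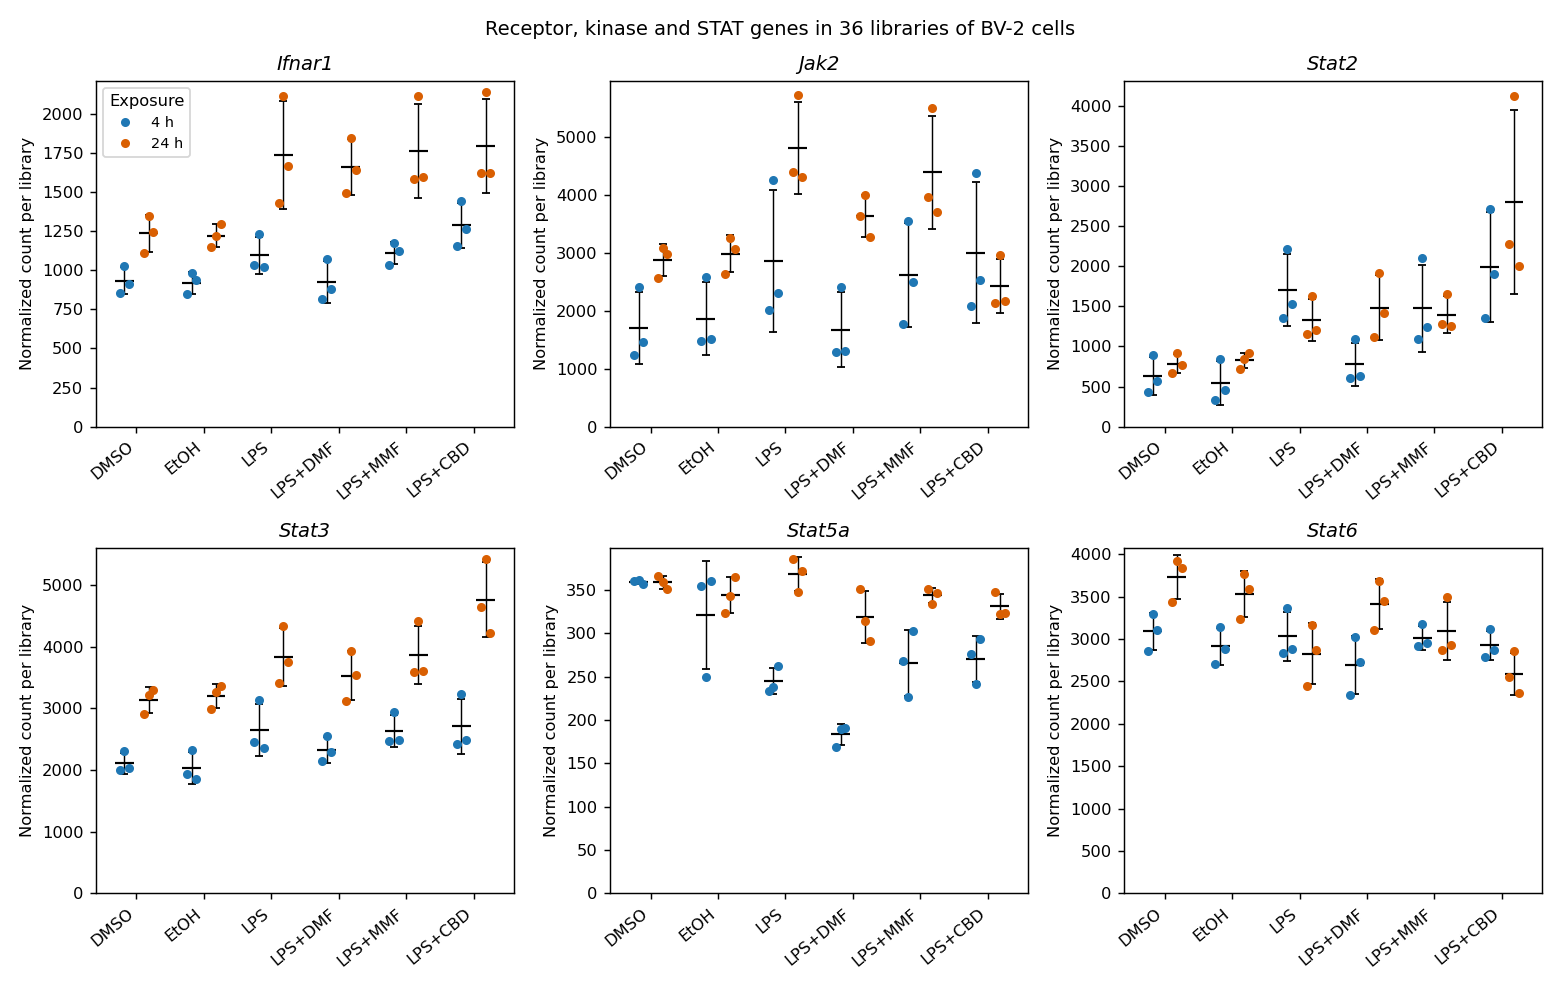
Normalized count (y axis, from 0) of Ifnar1, Jak2, Stat2, Stat3, Stat5a and Stat6 in each of the 36 libraries, by treatment (x axis) at 4 h (blue) and 24 h (orange). Points are libraries in order of replicate number, horizontal bars means and whiskers 1 SD (n = 3); the middle point is the highest in all 12 groups for Jak2 and Stat6.

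Several of these genes varied with the replicate number. The LPS groups carry numbers 1 to 3 and the vehicles 4 to 6, and the second library of each group (number 2 or 5) was the highest of its 3 in 12 of 12 groups for Jak2 and Stat6, in 11 for Stat2 and Ifnar1, and in 10 for Stat3. For Stat5a it was the highest in 1 group. The labels do not say that numbers 2 and 5 share a day or a culture, and the part of this in the results was not tested. As no number occurs in both, an effect of LPS against a vehicle cannot be told apart from a difference between numbers 1 to 3 and 4 to 6. Within the LPS groups, where same-numbered libraries deviated together, values with the number as a block are given beside the results they change.

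**Figure D3:**
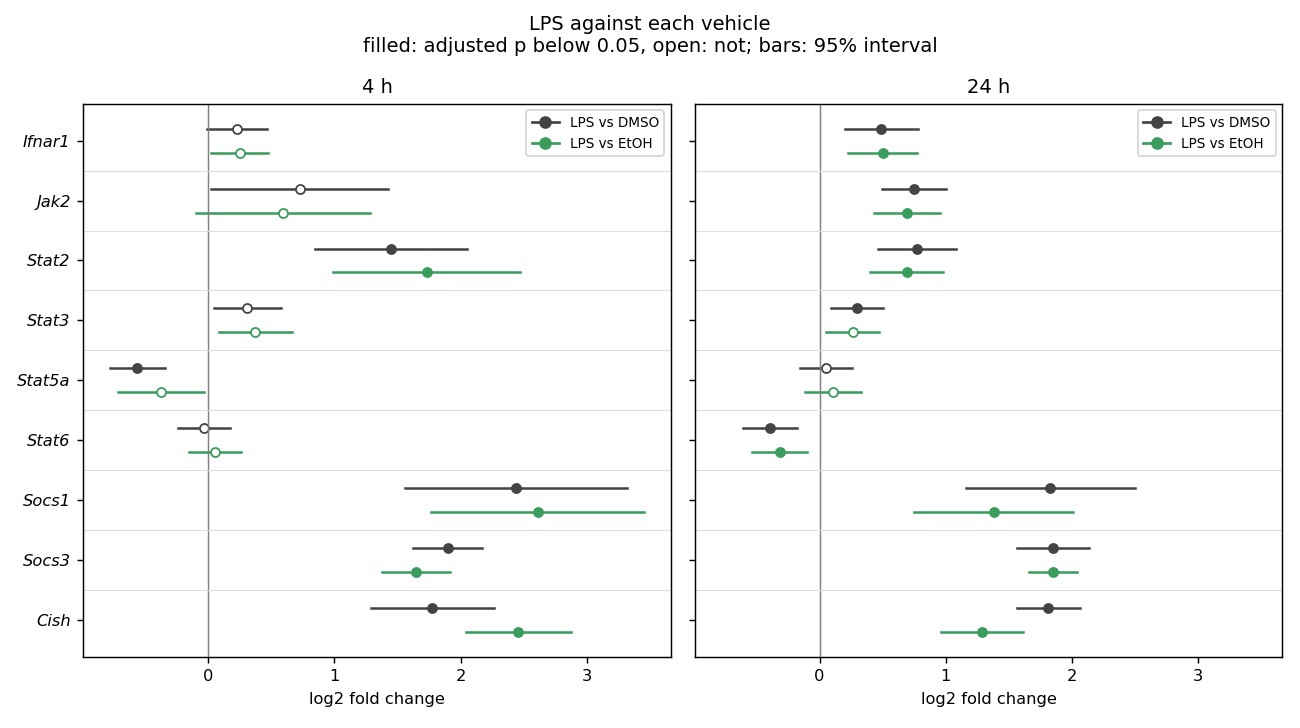
Log2 fold change (x axis) of the 9 genes (y axis) in LPS over DMSO (grey) and over EtOH (green) at 4 h (left) and 24 h (right). Points are estimates from 3 against 3 libraries, bars 95% intervals, and filled points passed the adjusted p of 0.05. Socs1, Socs3, Cish and Stat2 are filled in both panels for both vehicles.

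DMF with LPS was compared with LPS alone to see whether it changed the response. At 4 h DMF lowered the 3 feedback inhibitors and Stat2, and 4 of the 9 genes were called, all lower, beside 11.1% of 11371 genes tested. The LPS libraries are those used against the vehicles, so the 2 sets of values are not independent. Libraries with DMF and with LPS alone did not overlap for 30.1% of all genes tested. Cish counts were 47.6, 85.3 and 32.6 with DMF, all under the 156, 208 and 155 of LPS alone, and the first and last lay within the range of the vehicles at 4 h (27.3 to 65.0). Cish fell by 1.73 (SE 0.317, adjusted p = 0.00856). Socs3 counts of 411, 700 and 487 lay below 1400, 1885 and 1441, and it fell by 1.59 (SE 0.196, adjusted p = 0.00125). Socs1 counts of 31.8, 42.1 and 34.7 lay below 68.5, 98.1 and 103, though above each of the 6 vehicle libraries at 4 h, and it fell by 1.28 (SE 0.226, adjusted p = 0.00714). Stat2 counts of 610, 1087 and 635 lay below 1359, 2212 and 1532, and it fell by 1.15 (SE 0.243, adjusted p = 0.0160). The Stat2 call was lost without DMF replicate 1 (adjusted p = 0.0584) or 3 (adjusted p = 0.0762). Jak2 (1290, 2419 and 1312 with DMF) overlapped LPS alone, with -0.76 (SE 0.308, adjusted p = 0.166). With the replicate number as a block Jak2 had adjusted p = 0.000682, and without DMF replicate 2 the value was -1.07 with adjusted p = 0.0342. Stat5a counts with DMF (169, 190 and 191) were the lowest of the series, with -0.42 (SE 0.124, adjusted p = 0.0628, and 0.0435 with the block). Ifnar1 (-0.26, 95% interval -0.55 to 0.03), Stat3 (-0.18, -0.46 to 0.10) and Stat6 (-0.18, -0.44 to 0.09) did not pass.

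At 24 h Cish and Jak2 were called with DMF, both lower, beside 25.1% of 11670 genes tested, so that 2 of 9 is near the share of all genes. Libraries of the groups did not overlap for 42.4% of the genes tested. Cish counts were 228, 222 and 236 with DMF against 451, 494 and 444, and it fell by 1.02 (SE 0.0942, adjusted p = 0.000109). Jak2 counts of 3638, 4003 and 3274 lay below 4404, 5735 and 4309, and it fell by 0.40 (SE 0.112, adjusted p = 0.0264, or 0.121 without DMF replicate 3 and 0.331 with all libraries in 1 fit). Socs3 counts of 2040, 2591 and 2514 lay among the 2195, 2576 and 2373 of LPS alone, at -0.01 (95% interval -0.22 to 0.21). Stat2 was at 0.14 (-0.25 to 0.53) and Socs1 at -0.24 (-0.69 to 0.21). Stat6 was higher at 0.27 (SE 0.0975, adjusted p = 0.0635), with adjusted p = 0.00256 under the block, and 0.0397 without DMF replicate 1 and 0.0168 without LPS replicate 2.

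The difference between 24 h and 4 h was tested itself, over 12 libraries, as the change of the DMF effect with time. It was called for 3 of the 9 genes, beside 16.3% of 11958 genes tested. The difference, positive where DMF lowered a gene less at 24 h, was 1.58 for Socs3 (SE 0.235, adjusted p = 0.000498), 1.29 for Stat2 (SE 0.336, adjusted p = 0.0174) and 1.04 for Socs1 (SE 0.306, adjusted p = 0.0317). For Socs1 the call ended when any 1 of 7 libraries was left out (adjusted p = 0.0571 to 0.0883) and with no filter on low values (adjusted p = 0.0715). For Cish the change was 0.71 (SE 0.345, adjusted p = 0.178), or 1.07 with adjusted p = 0.00565 without DMF replicate 2 at 4 h. Stat6 was at 0.45 (SE 0.163, adjusted p = 0.0752), with adjusted p = 0.00347 under the block, and 0.0414 without LPS replicate 2 at 24 h and 0.0362 without DMF replicate 2 at 4 h.

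**Figure D4:**
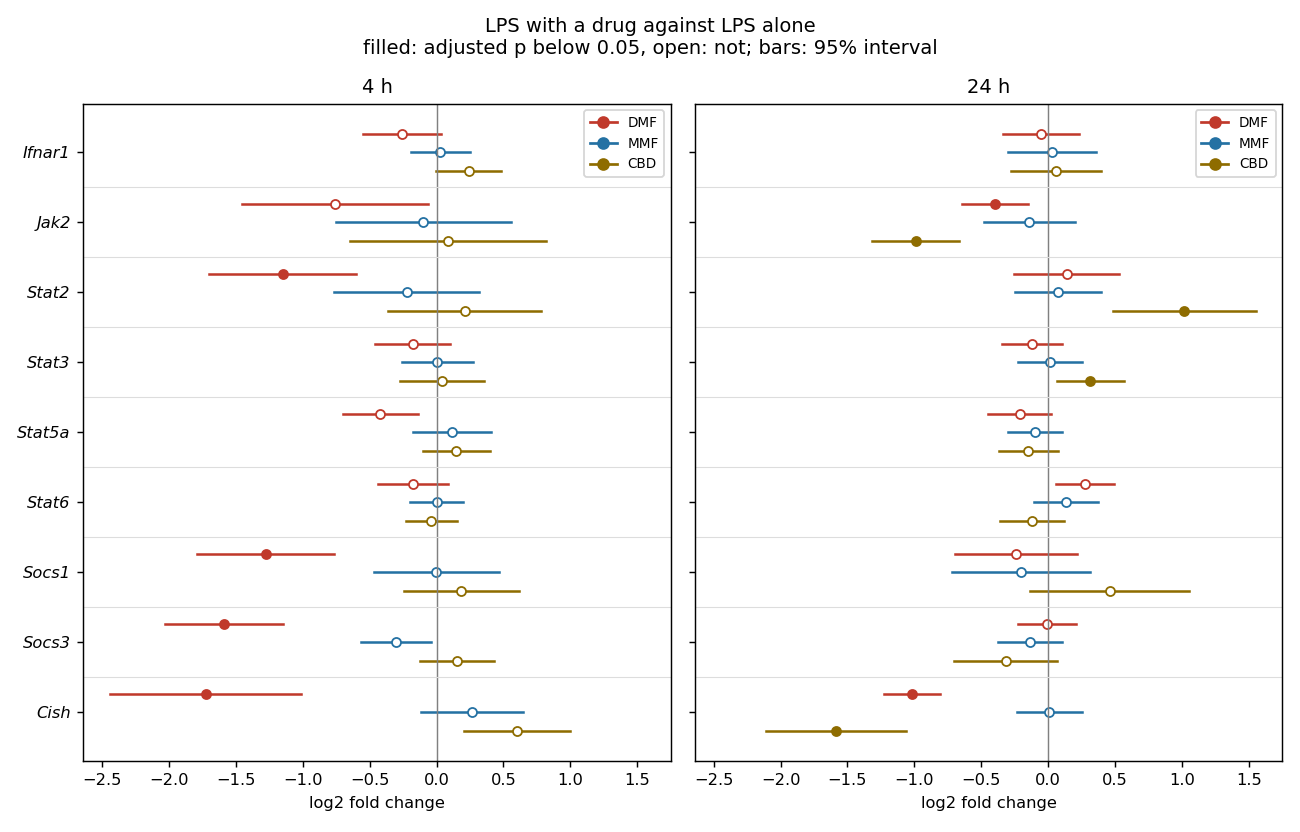
Log2 fold change (x axis) of the 9 genes (y axis) in LPS with DMF (red), MMF (blue) or CBD (brown) over LPS alone at 4 h (left) and 24 h (right). Points are estimates from 3 against 3 libraries, bars 95% intervals, and filled points passed the adjusted p of 0.05. No MMF point is filled, and CBD points are filled only at 24 h.

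MMF is the monomethyl ester to which DMF, the dimethyl ester, is hydrolysed, and both were given at the same dose. With MMF none of the 9 genes was called at 4 h, where 0.122% of 11431 genes tested were, nor at 24 h, where 0% of 11584 were. At an unadjusted p under 0.05 limma gave 1 of the 9 at 4 h (Socs3) and 0 at 24 h, and edgeR and DESeq2 called 0 of the 9 at both times. Socs3 counts at 4 h were 1378, 1203 and 1203 with MMF, all just under the lowest LPS library at 1400, with -0.30 (95% interval -0.57 to -0.04, adjusted p = 0.625). Libraries of these groups did not overlap for 13.5% of all genes tested. Cish counts of 213, 169 and 240 overlapped LPS alone, at 0.27 (-0.11 to 0.65). At 24 h the values of the 9 genes lay between -0.20 for Socs1 (-0.72 to 0.32) and 0.13 for Stat6 (-0.10 to 0.37). The change of the MMF effect with time was called for 0 of the 9 (0 at an unadjusted p under 0.05 and 0 by edgeR or DESeq2), as for 0% of 11839 genes tested.

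Set directly against MMF at 4 h, DMF gave lower Cish by 1.99 (SE 0.305, adjusted p = 0.00471), lower Socs3 by 1.28 (SE 0.173, adjusted p = 0.00246), lower Socs1 by 1.27 (SE 0.219, adjusted p = 0.00794) and lower Stat5a by 0.53 (SE 0.142, adjusted p = 0.0462). These 4 of 9 stood beside 8.34% of 11377 genes tested. All of the DMF libraries lay below all MMF libraries for these 4 genes, and libraries of the groups did not overlap for 29.6% of all genes tested. The Stat5a call ended on leaving out DMF replicate 1 or 3 or any MMF library (adjusted p = 0.0514 to 0.165). Stat2 did not pass at -0.93 (SE 0.265, 95% interval -1.51 to -0.34, adjusted p = 0.0589). Without DMF replicate 2 the calls were 7, with Stat2 (adjusted p = 0.00204), Jak2 (-0.96, adjusted p = 0.00811) and Ifnar1 (-0.40, adjusted p = 0.0374) added. The 8.34% does not belong to that fit. With the replicate number as a block, where the pairing was uncertain, Stat2 had adjusted p = 7.3e-05 and Jak2 adjusted p = 0.0017. At 24 h Cish alone was called, lower with DMF by 1.03 (SE 0.106, adjusted p = 0.000450), beside 21.5% of 11665 genes tested. The 95% intervals at 24 h were -0.14 to 0.39 for Socs3, -0.52 to 0.44 for Socs1 and -0.32 to 0.45 for Stat2. With the replicate number as a block 4 genes were called at 24 h, adding Jak2 (-0.26, adjusted p = 0.00405), Stat6 (0.14, adjusted p = 0.0328) and Stat3 (-0.13, adjusted p = 0.0459). The 21.5% is from the fit without the block, so these 4 have no share of all genes beside them. These comparisons of the fumarates covered 9 genes at 2 times, with p-values adjusted over all genes tested.

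CBD was given at another dose and in another vehicle, so its values are set beside those of the fumarates without comparison. At 4 h none of the 9 genes was called by limma (1 at an unadjusted p under 0.05, 0 by edgeR and 0 by DESeq2), beside 0.00875% of 11424 genes tested. Cish counts of 260, 314 and 213 with CBD lay above the 156, 208 and 155 of LPS alone, with 0.60 (SE 0.174, adjusted p = 0.994). Libraries of these groups did not overlap for 10.2% of all genes tested. At 24 h 4 of the 9 were called, Cish and Jak2 lower and Stat2 and Stat3 higher, beside 48.7% of 11671 genes tested, so that 4 of 9 is near the share of all genes. Libraries of the groups did not overlap for 58.7% of the genes tested. Cish counts of 168, 215 and 99.6 lay far under the 451, 494 and 444 of LPS alone, and it fell by 1.59 (SE 0.232, adjusted p = 0.000490). Jak2 counts of 2137, 2961 and 2176 lay under 4404, 5735 and 4309, and it fell by 0.99 (SE 0.145, adjusted p = 0.000489), and 2 of its 3 CBD libraries lay below every vehicle library at 24 h. Stat2 counts of 2280, 4121 and 2007 lay over 1158, 1629 and 1210, and it rose by 1.02 (SE 0.238, adjusted p = 0.00633). Stat3 rose by 0.32 (SE 0.113, adjusted p = 0.0415), with overlapping libraries (4634, 5421 and 4225 against 3414, 4341 and 3744), and the call ended on leaving out CBD replicate 1 or 2 or LPS replicate 1 or 3 (adjusted p = 0.0770 to 0.135). Socs3 counts of 1776, 2602 and 1490 overlapped LPS alone, at -0.32 (SE 0.172, adjusted p = 0.153). With the block Socs3 had adjusted p = 0.0246, and without CBD replicate 2, the high library, it was -0.54 with adjusted p = 0.00209. Socs1 was at 0.46 (95% interval -0.13 to 1.05) and Ifnar1 at 0.06 (-0.28 to 0.39).

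The change of the CBD effect with time was called for Cish alone of the 9, at -2.18 (SE 0.322, adjusted p = 0.000228), beside 32% of 11959 genes tested. Jak2 was at -1.07 (SE 0.394, adjusted p = 0.0525). With the replicate number as a block 5 genes were called, adding Jak2 (adjusted p = 0.000213), Stat2 at 0.81 (adjusted p = 0.00128), Socs3 at -0.47 (adjusted p = 0.02) and Stat3 at 0.28 (adjusted p = 0.0275). The 32% is from the fit without the block, so these 5 have no share of all genes beside them. Jak2 also passed without CBD replicate 2 at 24 h (-1.22, adjusted p = 0.0370), CBD replicate 1 at 4 h (-1.29, adjusted p = 0.0255) or LPS replicate 2 at 4 h (-1.40, adjusted p = 0.00568), and Socs3 without CBD replicate 2 at 24 h (-0.69, adjusted p = 0.00934).

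Between 4 h and 24 h Stat3 and Ifnar1 rose in every treatment, the vehicles included, and Jak2 in all but CBD. Of 9 genes, 6 were called in DMSO beside 51.6% of 11482 genes tested, 7 in EtOH beside 58.6% of 11775, 7 in LPS beside 48.9% of 11510, 8 with DMF beside 58.8% of 11602, 7 with MMF beside 49.5% of 11545 and 4 with CBD beside 63.2% of 11667. The rise was 0.53 to 0.81 for Stat3 and 0.38 to 0.85 for Ifnar1 over the 6 treatments. Jak2 rose by 0.71 to 1.17 in the 5 treatments other than CBD, where it was at -0.26 (SE 0.234, adjusted p = 0.354). Jak2 in LPS alone lost its call without LPS replicate 2 at 24 h or LPS replicate 1 or 3 at 4 h (adjusted p = 0.0508 to 0.0803), and by DESeq2 (0.0898). With MMF the DESeq2 value of Jak2 was 0.0578.

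Cish rose in 5 treatments. In EtOH it rose by 2.60 (SE 0.193, adjusted p = 9.04e-06), from 27.3, 34.5 and 29.8 to 178, 160 and 243, and in DMSO by 1.39 (SE 0.199, adjusted p = 0.000250). It rose by 1.42 in LPS, 2.13 with DMF and 1.17 with MMF, and with CBD it fell by 0.77 (SE 0.254, adjusted p = 0.0238). The fall with CBD was not called without CBD replicate 3 at 24 h or CBD replicate 1 or 2 at 4 h (adjusted p = 0.0521 to 0.0771). Socs3 rose in 5 treatments, by 0.39 (EtOH) to 0.77 (MMF) in those without DMF and by 2.18 with DMF (SE 0.174, adjusted p = 7.71e-06), and with CBD it was at 0.13 (SE 0.170, adjusted p = 0.533). Socs1 was called lower at 24 h in LPS by 0.63 (SE 0.219, adjusted p = 0.0363) and with MMF by 0.83 (SE 0.221, adjusted p = 0.00906). The LPS call of Socs1 ended without LPS replicate 1 or 3 at 24 h or 2 or 3 at 4 h (adjusted p = 0.0522 to 0.139), with no filter on low values (0.0619) and with all libraries in 1 fit (0.124). Socs1 did not pass in EtOH (0.61), with DMF (0.41), with CBD (-0.36) or in DMSO (-0.02). Stat5a rose in the 4 groups with LPS, by 0.28 with CBD to 0.79 with DMF, and was at -0.03 (95% interval -0.22 to 0.17) in DMSO and 0.10 (-0.22 to 0.41) in EtOH. Its CBD call ended on leaving out any of 5 libraries (adjusted p = 0.0622 to 0.153) and its MMF call on any of 4 (adjusted p = 0.0516 to 0.0908). Stat6 rose in DMSO by 0.25, in EtOH by 0.26 and with DMF by 0.34, and Stat2 with DMF by 0.94 (SE 0.231, adjusted p = 0.00508) and in EtOH by 0.69 (SE 0.265, adjusted p = 0.0442), the latter call ending without any of 5 libraries (adjusted p = 0.0557 to 0.163) and by edgeR (0.0745), DESeq2 (0.214) and the fit of all libraries (0.0566). The Stat6 calls also ended without 1 library, in DMSO for 4 libraries (adjusted p = 0.0503 to 0.0703), in EtOH for 2 (0.0629 and 0.0715) and with DMF for 2 (0.0668 and 0.0841). In LPS alone Stat2 was at -0.34 (SE 0.179, adjusted p = 0.137), or 0.00589 with the block and -0.49 with 0.0476 without LPS replicate 1 at 4 h. Stat2 also passed in DMSO without DMSO replicate 5 at 4 h (0.62, adjusted p = 0.00235) and with CBD without CBD replicate 2 at 4 h (0.72, adjusted p = 0.0437). Without CBD replicate 2 at 24 h Stat6 (-0.26, adjusted p = 0.0172) and Socs1 (-0.64, adjusted p = 0.0131) passed with CBD.

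**Figure D5:**
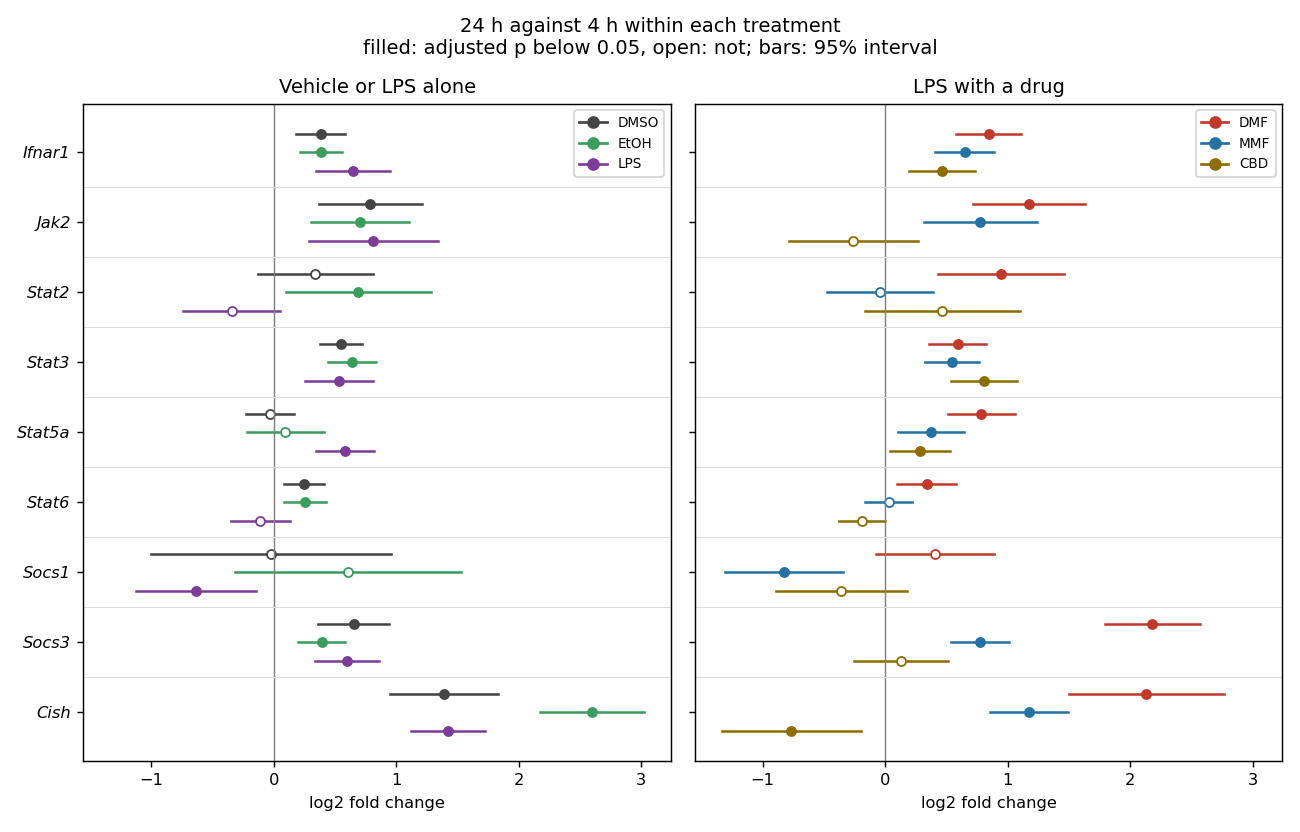
Log2 fold change from 4 h to 24 h (x axis) of the 9 genes (y axis) in DMSO, EtOH or LPS alone (left) and in LPS with DMF, MMF or CBD (right). Points are estimates from 3 against 3 libraries, bars 95% intervals, and filled points passed the adjusted p of 0.05. Stat3 and Ifnar1 are filled in all 6 treatments, and Cish lies left of 0 only with CBD.

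The change of the LPS effect with time was called for Stat5a with DMSO as the control, at 0.59 (SE 0.122, adjusted p = 0.00954), beside 9.46% of 11911 genes tested. With EtOH it was called for Cish, at -1.18 (SE 0.236, adjusted p = 0.00752), beside 9% of 11928. Cish with DMSO was at 0.01 (95% interval -0.50 to 0.53), and Stat5a with EtOH at 0.47 (SE 0.182, adjusted p = 0.124). Without DMSO replicate 5 at 4 h Stat2 was also called with DMSO (-0.98, adjusted p = 0.0416). With EtOH, leaving out EtOH replicate 5 at 4 h gave calls of Stat2 (-1.43, adjusted p = 0.00529) and Stat5a (0.64, adjusted p = 0.0132), and leaving out EtOH replicate 6 at 4 h gave Socs1 (-1.63, adjusted p = 0.0405).

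The vehicles themselves differed in none of the 9 genes by limma, at 4 h (0% of 11458 genes tested called) or at 24 h (0.00854% of 11715). At an unadjusted p under 0.05 there were 2 of the 9 at 4 h (Socs3 and Cish) and 1 at 24 h (Cish), and edgeR and DESeq2 called 0 at both times. Cish was at 0.68 in DMSO over EtOH at 4 h (SE 0.237, adjusted p = 0.442) and at -0.53 at 24 h (SE 0.162, adjusted p = 0.998), with no overlap of libraries at either time. Among all genes tested, libraries of the vehicles did not overlap for 14.6% at 4 h and 8.9% at 24 h. With the replicate number as a block 2 genes were called at 4 h, Stat2 at 0.28 (adjusted p = 0.0319) and Socs3 at -0.25 (adjusted p = 0.0410). The 0% at 4 h is from the fit without the block, so these 2 have no share of all genes beside them.

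Other genes of the pathway were counted in lists by role, without the 9, and genes were named from each list by the size of their change. Of 16 ligands on the list, 7 were tested at 4 h, having counts of 10 or more in at least 3 of 6 libraries. LPS raised 5 of these 7 against each vehicle, with a median log2 fold change of 0.93 (DMSO) and 1.24 (EtOH). A gene can meet that limit through the LPS libraries alone, so these values do not describe the whole list. Ligand counts and medians below carry the same limit. The colony-stimulating factor gene Csf3 was at 5.87 (SE 0.620) and 5.75 (SE 0.272), and Lif, an interleukin-6 family cytokine, at 1.16 and 1.28. Mean counts of Csf3 were 3.08 in DMSO and 2.58 in EtOH, so its fold depends on the added count of 1, as does that of Il6 at 24 h. At 24 h it raised 3 of 7 (DMSO) and 3 of 8 (EtOH), among them Csf3 by 6.59 and 6.41 and Il6 by 4.39 and 4.59. Of the receptor genes LPS moved 3 up and 1 down of 17 (DMSO) and 1 up and 3 down of 18 (EtOH) at 4 h, and Lifr, the receptor of Lif, fell by 1.10 and fell by 1.28. Ifngr2 rose by 0.62 over DMSO, and Ifngr1 fell by 0.51 against EtOH. At 24 h 9 of 17 and 8 of 18 rose and 2 fell in each, led by Csf3r (2.36 and 2.35), the receptor of Csf3, and Csf2ra (0.88 and 0.89). Of the other kinases and factors 2 of 6 rose and 1 fell at 4 h, and 3 of 7 rose at 24 h. Irf9, the partner of Stat2, rose by 0.98 and 1.08 at 4 h and by 0.48 over EtOH at 24 h, and Tyk2 by 0.52 over DMSO at 24 h. The shares of all genes called were 14.1% (DMSO) and 10.2% (EtOH) at 4 h and 22.7% and 20.5% at 24 h, and the medians over all genes tested were between -0.0005 and 0.0092 in these comparisons.

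Of 17 other negative regulators tested, LPS raised 2 at 4 h against each vehicle, and 1 fell against DMSO, which is near the shares of all genes called (14.1% and 10.2%). Asb2, a SOCS-box ubiquitin ligase subunit, rose by 3.38 and 2.77, and Usp18, the interferon-induced inhibitor of type I interferon receptor signalling, by 1.98 and 1.86. At 24 h 6 of 17 rose and 1 fell against each vehicle, beside 22.7% and 20.5% of all genes, with Asb2 at 3.37 and 3.32, the phosphatase Ptpn6 at 1.05 over DMSO and Usp18 at 1.09 over EtOH. The medians of this list were close to 0 (0.05 to 0.07). Of 16 genes known to respond to STAT proteins 4 and 6 rose at 4 h and 0 and 1 fell, beside 14.1% and 10.2% of all genes, with the NF-kB cofactor Bcl3 at 1.73 and 1.75 and the kinase Pim1 at 1.63 and 1.95. At 24 h 5 rose and 3 fell against each vehicle, beside 22.7% and 20.5%, with Bcl3 at 1.95 and 2.24 and Pim2 at 2.02 over DMSO. Arg1, the arginase of interleukin-4 responses, fell by 2.68 against EtOH.

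DMF at 4 h lowered members of every list, while 11.1% of all genes were called in either direction. Called were 1 higher and 2 lower of 7 ligands, 1 and 5 of 17 receptors, 0 and 2 of 6 kinases and factors, 2 and 4 of 17 negative regulators, and 0 and 5 of 16 STAT-responsive genes, with list medians of -0.94, -0.26, -0.42, -0.0028 and -0.35 beside 0.0056 for all genes. Asb2 fell by 4.62 (SE 0.378), to a mean count of 4.85, and Usp18 fell by 2.57. Among ligands and receptors Lif fell by 1.17, Il23a fell by 0.64, Csf2rb fell by 1.14 and Il15ra fell by 1.03. Irf9 fell by 0.64, Bcl3 fell by 1.32 and Pim1 fell by 0.98. Csf2rb has the closely similar copy Csf2rb2, and how reads that align to both were counted is not given. At 24 h 6 of the 9 ligands tested, of 16 on the list, rose with DMF and 0 fell. Csf3 rose by 1.95 and Lif by 1.2018. The median of the 9 was 1.06 beside -0.01 for all genes, of which 25.1% were called. A ligand can enter this test through the DMF libraries alone, so these values do not describe the whole list. In the other lists called were 3 higher and 2 lower of 18 receptors (Csf3r fell by 0.81 and Il4ra rose by 0.65), 0 and 2 of 7 kinases and factors (Jak3 fell by 0.42 and Stat5b fell by 0.38), 2 and 2 of 17 negative regulators (Ptpn6 fell by 0.37) and 4 and 0 of 15 STAT-responsive genes (Nfil3 rose by 0.60 and Tnfrsf1a by 0.37), shares close to that of all genes. The change of the DMF effect with time was called for 5 of the 10 ligands tested, all higher at 24 h, beside 16.3% of all genes. The median of the 10 was 1.92. Ligands high in 1 group only could enter here too, so this does not describe the 16 on the list.

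With MMF 0 genes of the 5 lists were called at either time, and with CBD 0 at 4 h. With CBD at 24 h, when 48.7% of all genes were called and list shares near it say nothing about a list, 5 of 8 ligands rose and 0 fell, among them Il6 by 1.74 and Osm, which signals to Stat3 through gp130, by 1.43. Of 18 receptors 8 rose and 5 fell, among which Il21r rose by 2.78 and Il10ra, the receptor of interleukin-10, fell by 1.92. Of 6 kinases and factors 2 rose and 1 fell, with Irf9 at 0.58 and Jak1 at 0.37. Of 17 negative regulators 2 rose and 8 fell, with a median of -0.21 beside -0.0019 for all genes. Asb2 fell by 3.68 and Usp18 rose by 1.30. Of 15 STAT-responsive genes 3 rose and 3 fell, and the cyclin gene Ccnd1 fell by 1.70 and Pim2 fell by 1.34.

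As a description, each gene was set beside the 2 others whose 12 group means, on the log2 scale, followed it most closely among 10096 genes (Pearson r over 12 group means, with no test, since all share the same libraries and times). They were Xaf1 (0.988) and Ccrl2 (0.986) for Stat2, Skil and Bcl3 (0.978 each) for Socs3, Fas (0.975) and Mx2 (0.966) for Socs1, and Nos2 (0.957) and Hcar2 (0.954) for Cish. For Jak2 they were St3gal6 (0.975) and Bmf (0.959), for Stat3 Il3ra and Npc2 (0.975 each), for Stat5a Rbl2 (0.971) and Plxnb2 (0.966), for Stat6 Hbegf (0.920) and Eeig1 (0.917) and for Ifnar1 Parp3 and Mlkl (0.975 each). Among the 9 genes themselves the values were 0.949 for Ifnar1 and Stat3, 0.929 for Cish and Jak2 and 0.908 for Socs1 and Stat2.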

How the data were processed

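Poly(A) RNA from 36 libraries of BV-2 cells (12 groups of 3, treated for 4 or 24 h) was sequenced in pairs of reads. Per the methods and the submitters' processing notes, reads were checked with FastQC 0.12.1, trimmed with Cutadapt 4.4 and Trimmomatic 0.39, aligned to GRCm39 with HISAT2 2.2.1 and counted with HTSeq 2.0.3 on Ensembl 110. The strand setting is not given in the sources used here. What the authors deposited were 30 tables of 2 groups at a time, in which 6 library columns hold counts that they had divided by DESeq2 1.40.2 size factors, recorded here as signal values because they are no longer whole. The log2 fold changes, p-values and other result columns that the authors deposited beside them were not used.

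Whole reads were recovered from the step between values, 100% of 3127002 values being whole within 0.01. Each pair was fitted on its own 6 libraries with limma 3.58.1 (R 4.3.3, trend, two-sided) on log2(deposited value + 1), for genes at 10 or more in at least 3 libraries. Changes with time were fitted on 12 libraries, with recovered reads scaled together by median of ratios, and the levels printed are on that scale. edgeR 4.0.16 and DESeq2 1.42.0 on recovered reads, other scalings, pseudocounts of 0.5 and 5, no filter, all libraries in 1 fit, a fold limit, each library left out and the replicate number as a block were the alternatives. The fits were also run on simulated counts with independent libraries and a single dispersion. That setting lacks the shared deviations of same-numbered libraries, so it does not measure error rates in these data. Replicate pairs differed by more than sampling noise (chi-square per degree of freedom 4.83 to 31), so none was counted as 1 library.

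Same-numbered libraries deviated together, with every correlation of deviations above 0.1, in 10 of 16 comparisons whose groups share numbers (DMF, MMF at 24 h and CBD against LPS, DMF against MMF at 24 h, DMSO against EtOH, and time in LPS and MMF), and the numbers were taken to pair the libraries there.

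The 9 genes and the pathway and marker lists were chosen with earlier results of these data known. From each list, up to 2 called genes with the largest absolute change and a mean of at least 50 in the higher group were named where LPS was set against a vehicle or an agent against LPS. Genes that this rule chose and that are not named are not reported here. Proteins were not analysed here.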

Additional observations from a re-analysis of the deposited data

Results flagged for a closer look

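For 6 values, the effect of LPS or of an agent differed between 24 h and 4 h by a test of that difference over 12 libraries (limma, adjusted over all genes). The effect of LPS against DMSO on Stat5a was higher at 24 h by 0.59 on the log2 scale (SE 0.122, adjusted p = 0.00954), and that of LPS against EtOH on Cish differed by -1.18 (SE 0.236, adjusted p = 0.00752). With DMSO as the control the Cish value was 0.01 (SE 0.242, adjusted p = 0.980). With EtOH as the control the Stat5a value was 0.47 (SE 0.182, adjusted p = 0.124).

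The effect of DMF against LPS was higher at 24 h by 1.58 for Socs3 (SE 0.235, adjusted p = 0.000498), by 1.29 for Stat2 (SE 0.336, adjusted p = 0.0174) and by 1.04 for Socs1 (SE 0.306, adjusted p = 0.0317). The Socs1 call ended when any 1 of 7 libraries was left out (adjusted p = 0.0571 to 0.0883) and with no filter on low values (adjusted p = 0.0715). The effect of CBD against LPS on Cish differed by -2.18 (SE 0.322, adjusted p = 0.000228), from 0.60 at 4 h to -1.59 at 24 h. Groups of 3 libraries are too small for a test of a single outlying library.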

How the results depend on the processing

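Of 225 values of the 9 genes, 84 were called, and none of these reversed under any alternative run. TMM scaling, library total scaling and pseudocounts of 0.5 or 5 ended 0 of the 84 calls, edgeR 2, DESeq2 4, no filter 4, and all libraries in 1 fit 8 of 78. Leaving out 1 library ended 20 calls at least once and kept 64. A limit of 1 on the absolute log2 fold change, which removes small changes by construction, ended 47. It left 3 calls in LPS against DMSO and 3 against EtOH at 24 h, 1 in DMF against LPS and 2 in CBD against LPS at 24 h, 1 each between times in DMSO, EtOH, LPS and MMF, 3 with DMF and 0 with CBD, and 0 for the change with time of LPS over DMSO. With all libraries in 1 fit, 5 calls in place of 8 remained in LPS against DMSO at 24 h (the cause was not tested), and at 4 h against EtOH Stat3 (adjusted p = 0.0389) and Stat5a (adjusted p = 0.0198) were added. DESeq2 also called Stat3 there (adjusted p = 0.0456) and Stat6 in DMF against LPS at 24 h (adjusted p = 0.0435). Library total scaling gave 2 calls in place of 1 for the change with time of CBD, adding Jak2 (adjusted p = 0.0352), and added Stat2 in DMF against MMF at 4 h (adjusted p = 0.0330) and Stat6 for DMF at 24 h (adjusted p = 0.0499) and its change with time (adjusted p = 0.0374).

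Leaving out 1 library moved the calls to 5 to 8 in LPS against DMSO at 24 h, 1 to 3 in DMF against LPS at 24 h, 3 to 7 in DMF against MMF at 4 h and 2 to 5 between times with CBD. For changes with time they moved to 1 to 2 for LPS over DMSO, 1 to 3 for LPS over EtOH, 2 to 5 for DMF and 1 to 3 for CBD. With the replicate number as a block, 4 genes were called in DMF against MMF at 24 h in place of 1, 2 in DMSO against EtOH at 4 h in place of 0, and 5 for the change with time of CBD in place of 1. Shares of all genes called are given only for the main fits, so counts under these alternatives have no such share beside them. The block ended 0 of the 58 calls of comparisons whose groups share numbers, and the genes it added in paired comparisons are given beside their results. In the other 6 comparisons not every same-numbered pair had a correlation above 0.1 (lowest 0.0079 to 0.0809, highest 0.314 to 0.621), so the pairing is uncertain. There the block added Stat2 (adjusted p = 7.3e-05) and Jak2 (adjusted p = 0.0017) in DMF against MMF at 4 h, Stat2 between times in DMSO (adjusted p = 0.0155) and Stat2 (adjusted p = 0.00668) and Stat6 (adjusted p = 0.0329) with CBD. Depth limits Socs1, which had 8 reads in its lowest library.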
